A study of Rattus norvegicus with 2 samples.

Results

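The genes of the transforming growth factor beta (TGF-beta) and bone morphogenetic protein (BMP) pathways were compared between the wall of rat intracranial arteries and an induced intracranial aneurysm. They were taken by symbol: TGF-beta, BMP, GDF and activin ligands, latent TGF-beta binding proteins, receptors, Smads, Id genes, named antagonists and the ubiquitin ligases Smurf1 and Smurf2. The rule fitted 72 rat gene symbols, and 63 of them had a probe on the array, of 15159 genes with a matched probe. One array was hybridised with RNA of untreated intracranial arterial wall (control) and 1 array with RNA of an aneurysm lesion removed 3 weeks after its induction. The strain, the age, the method of induction and the number of animals behind each RNA are not stated in the labels. The other 9 symbols (Bmp2k, Bmp8b, Bmpr1a-ps1, Gdf1, Gdf5, Gdf11, Smad2-ps1, Smad2-ps2 and Tgfbr3l) were not analysed here. With 1 array per group there is no replicate check and no p-value, so each difference describes these 2 libraries.

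TGF-beta ligands are secreted in a latent complex held in the matrix by latent TGF-beta binding proteins, and once freed they bind a pair of serine/threonine kinase receptors that phosphorylate Smad2 and Smad3. BMPs use related receptors that phosphorylate Smad1, Smad5 and Smad9, and both branches share Smad4, while Smad6, Smad7 and the Smurfs restrain them. In arteries the pathway is known for driving matrix synthesis by smooth muscle cells and fibroblasts, and endothelial cells carry a branch of their own through endoglin and the receptor ALK1, which raises Id genes.

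Values are levels, the log2 of the processed spot signal over that array's 75th percentile, and differences are aneurysm level minus control level. Each ± gives a spot error, which rests on how far repeat spots spread on one array, pooled over probes of like signal. It holds no variation between animals. Levels of different genes come from different probes and are not compared. The scanner software marked 74.7% (control) and 76.4% (aneurysm) of gene spots as well above background, and it marked none as saturated. Both arrays lay on 1 slide and were read in 1 scan. Vessel wall markers were well above background in both libraries, among them the smooth muscle actin gene Acta2 (3.46 control, 3.45 aneurysm), the smooth muscle myosin gene Myh11 (4.89 and 4.97) and the endothelial gene Pecam1 (1.74 and 2.07). Markers of liver and oligodendrocytes lay lower in the aneurysm library. All 11 measured hepatocyte markers lay lower there by 2-fold or more (median -4.37, summed signal 46.5 times the 75th percentile in the control and 8.63 times in the aneurysm), as did 6 of 8 oligodendrocyte markers (median -1.13).

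Most members differed little between the libraries, and the 4 that exceeded the control by 1.5-fold or more were the ligand gene Tgfb3, the coreceptor gene Eng, the receptor gene Acvr1c and the ligand gene Bmp6. Of the 63 members, 54 were well above background on both arrays, Nog in the aneurysm library only and Gdf3 in the control library only, so that 56 had a difference or a bound. The other 7 (Bmp3, Bmp10, Gdf2, Gdf9, Inhbc, Inhbe and Smad3) stayed near background on both. The 4 higher members stand beside 4.25% of the 11902 measured genes at least 1.5-fold higher, and 2 members (Gdf3 and Gdf6) were at least 1.5-fold lower, beside 8.43% of measured genes. At 2-fold, Tgfb3 was higher and Gdf3 lower, beside 0.882% and 3.91% of measured genes. The other 50 measured members lay within 1.5-fold. In all, 36 measured members were higher and 20 lower, with a median of 0.13, against 50.2% of measured genes higher and a median of 0.001 over all of them. Nog and Gdf3 were measured through 1 array only and so had to differ. Without them 35 of 54 members were higher and the median was 0.13.

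Scaling moved these counts. Spike-in scaling added 0.30 to each difference (median of all genes 0.30), and then 14 members were at least 1.5-fold higher and 1 lower, and the backgrounds were 16.5% and 4.69%. With quantile normalization the counts were 6 and 1 (backgrounds 6.54% and 6.57%), and with normexp background correction, which shrinks differences of dim genes by construction, 3 and 0 (0.985% and 4.86%). With normexp 49.1% of measured members were higher, beside 40.3% of all genes, and their medians were -0.0056 and -0.06. The median of the members lay above that of all genes by 0.13 with the reported scaling, by 0.13 with spike-in scaling, by 0.17 with quantile normalization and by 0.06 with normexp. A direction held under all 11 alternatives for 24 of the 36 higher members and 5 of the 20 lower ones. These counts are not alike, since median, bright-probe and spike-in scaling raised every difference and could turn only lower members. Normexp on processed signals went the other way. It turned 8 of the 36 higher members lower (Acvr1, Acvr1b, Bmp15, Bmp8a, Id3, Smad1, Smad2 and Tgfb2) and 0 of the lower members higher. The filters and kept outliers changed few values, and the mean over probes could not move a member with 1 probe. The lower 5 were Smad5, Bmpr1b, Gdf6, Smad9 and Acvr2a, while 14 of the 20 lower members turned higher with spike-in scaling (Acvr2b, Bmp1, Bmp7, Chrd, Fst, Gdf10, Gdf15, Grem1, Id4, Inhbb, Smad4, Tgfbr2, Tgfbr3 and Tgfbrap1). Gdf3, lower under the 10 alternatives that gave it a value, had none where a probe had to be well above background on both arrays.

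**Figure D1:**
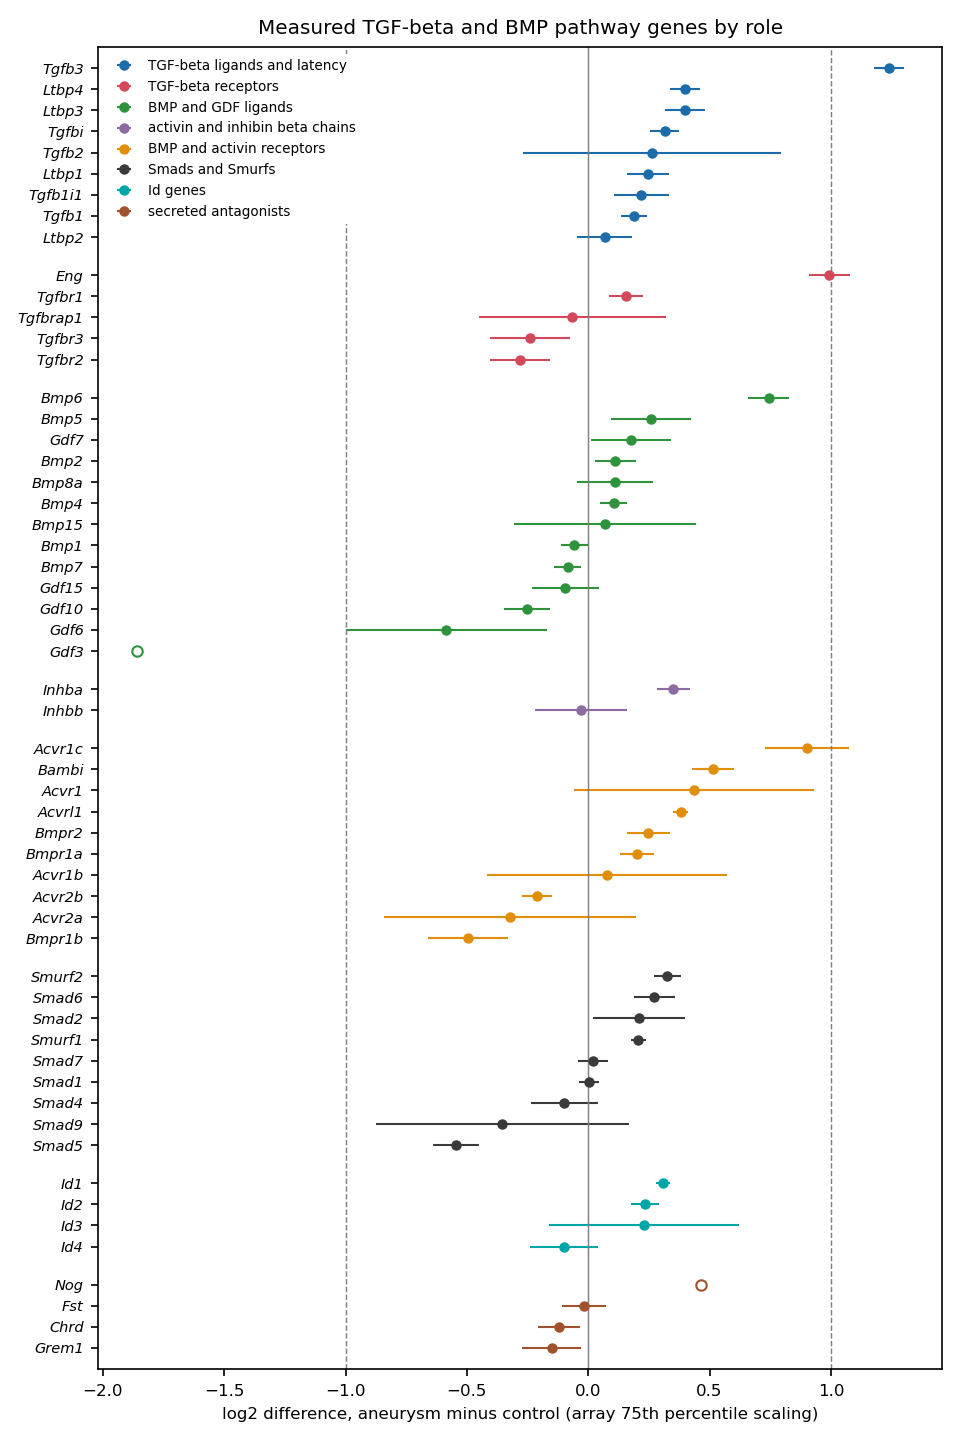
Log2 difference, aneurysm minus control, of the 56 measured TGF-beta and BMP pathway genes, grouped by role and ordered within each role. Filled points carry bars of 1 spot error, open points are bounds for genes well above background on 1 array, and dashed lines mark 2-fold; Tgfb3 lies beyond 2-fold and Eng just short of it.

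Tgfb3, which encodes the TGF-beta3 ligand, had levels of 0.36 (control) and 1.60 (aneurysm), from processed intensities of 797 and 2428. Its 2 spots lay at 0.34 and 0.38 on the control array and at 1.57 and 1.63 on the aneurysm array, so the arrays did not overlap. The difference was 1.24 ± 0.06, which is 2.36-fold, and it ranged from 1.17 to 1.54 over the alternatives. Eng, which encodes endoglin, a TGF-beta and BMP coreceptor of endothelial cells, was at -1.21 in the control library and at -0.21 in the aneurysm. Its control spots lay at -1.28 and -1.14 and its aneurysm spots at -0.28 and -0.14, again without overlap. The difference of Eng was 0.99 ± 0.08 (1.99-fold; 0.82 to 1.29 over the alternatives).

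Acvr1c, which encodes the type I receptor ALK7, was at -3.48 in the control against -2.58 in the aneurysm library. It differed by 0.90 ± 0.17 (1.87-fold), and this was 0.47 with normexp and 0.39 with normexp on median signals, under 1.5-fold in both. A second Acvr1c probe did not rise above background. Bmp6, which encodes a ligand of the BMP branch, was at -0.62 in the control against 0.12 in the aneurysm library. It differed by 0.74 ± 0.08, or 1.67-fold, and lay between 0.62 and 1.04 over the alternatives. Acvr1c and Bmp6 had 2 spots per array, again without overlap, while Gdf3 and Gdf6 had a single spot per array and could not overlap. Members picked for a large difference tend to lie apart in this way. The share of all genes without overlap was not counted.

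The stretches upstream of these 4 genes are shown so that their sequence can be compared. Each is the 250 bases before the gene start in RefSeq's GRCr8 assembly, 5′ to 3′ on the gene's strand, with capitals for matches to 3 motifs on either strand: CAGAC (the Smad-binding element), GGCGCC (the core of a BMP response element) and GGGCGG (the GC box). They lie at chr6:111456947-111457196 (Tgfb3, minus strand), chr3:36332029-36332278 (Eng, plus strand), chr3:63301155-63301404 (Acvr1c, minus strand) and chr17:26675262-26675511 (Bmp6, minus strand).
Tgfb3: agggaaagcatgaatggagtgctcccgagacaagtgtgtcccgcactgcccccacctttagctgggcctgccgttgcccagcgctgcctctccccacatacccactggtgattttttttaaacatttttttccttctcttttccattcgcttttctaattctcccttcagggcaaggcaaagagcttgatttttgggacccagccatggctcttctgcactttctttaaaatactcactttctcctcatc
Eng: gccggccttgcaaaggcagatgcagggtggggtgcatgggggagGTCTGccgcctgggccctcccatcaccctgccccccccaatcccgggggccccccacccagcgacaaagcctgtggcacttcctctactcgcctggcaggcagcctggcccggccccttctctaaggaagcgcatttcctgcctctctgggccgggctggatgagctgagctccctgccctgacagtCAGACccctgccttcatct
Acvr1c: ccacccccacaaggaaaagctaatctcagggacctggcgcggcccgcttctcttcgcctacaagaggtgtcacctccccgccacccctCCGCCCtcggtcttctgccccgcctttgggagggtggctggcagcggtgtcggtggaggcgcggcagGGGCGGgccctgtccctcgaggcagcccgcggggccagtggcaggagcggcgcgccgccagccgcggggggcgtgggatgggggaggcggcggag
Bmp6: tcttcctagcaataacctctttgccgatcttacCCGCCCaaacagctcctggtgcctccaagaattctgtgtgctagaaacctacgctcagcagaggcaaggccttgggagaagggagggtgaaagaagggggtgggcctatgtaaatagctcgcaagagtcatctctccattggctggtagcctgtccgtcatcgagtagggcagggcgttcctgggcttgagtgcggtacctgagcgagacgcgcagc

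No motif was common to the 4 stretches. That of Eng held 2 matches to CAGAC, 1 on each strand, starting at positions -206 and -19 (position -1 is the base before the gene start), and those of Acvr1c and Bmp6 held 2 and 1 matches to GGGCGG. The stretch of Tgfb3 held none of the 3 motifs, and GGCGCC was in none of the 4. No matches overlapped. Among 33469 RefSeq promoters, 42.9% held CAGAC within the same window, 30.5% GGGCGG and 8.69% GGCGCC. Over the 55 promoter windows listed for 52 of the members, the shares were 27.3%, 63.6% and 27.3%. GGGCGG and GGCGCC hold only G and C, and the share of these bases differed between stretches. It was 48.8% for Tgfb3, 68.0% for Eng, 74.4% for Acvr1c and 56.4% for Bmp6, beside a median of 51.2% over all promoters. The part of base content in the motif shares was not tested. The matches are a description of these letters and not of binding.

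**Figure D2:**
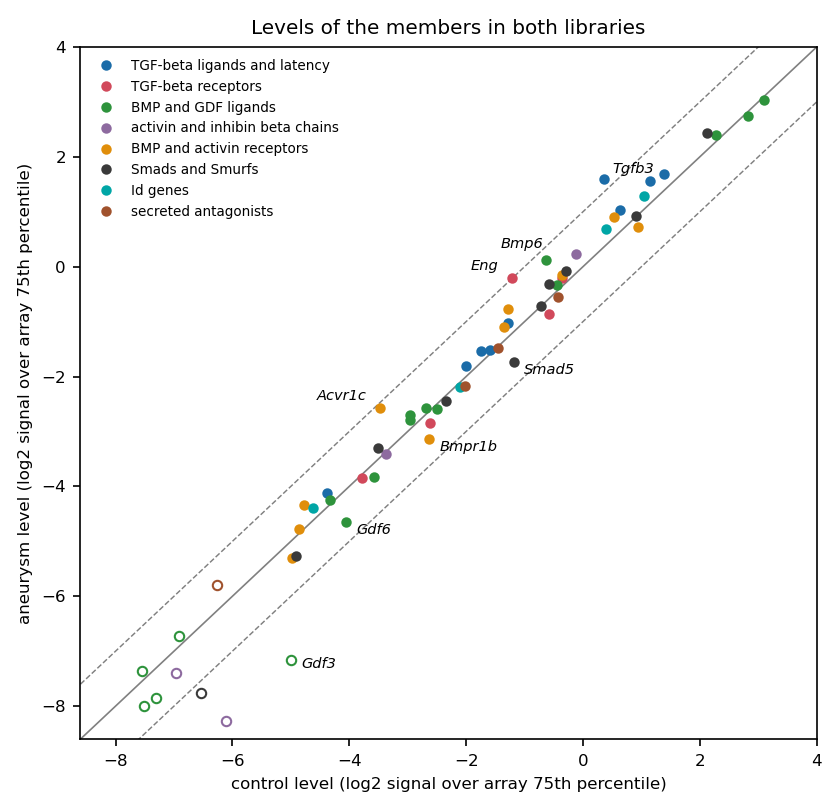
Level in the aneurysm library against level in the control library, each as log2 signal over the array's 75th percentile, for the 63 members with a probe, coloured by role. Open points were not well above background on both arrays, the solid line marks equal levels and dashed lines 2-fold. Most filled points lie close to the solid line, while at the dim end the open points of Gdf3, Inhbc and Smad3 lie beyond 2-fold.

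All 9 measured members of the TGF-beta ligand and latency group were higher in the aneurysm library with the reported scaling, beside 50.2% of all measured genes. Tgfb3 alone was past 1.5-fold. The group median of 0.26 was the value of Tgfb2, which is itself uncertain. Tgfb2 turned lower with normexp (-0.06 on processed and -0.34 on median signals) and as the mean over its probes (-0.12). Tgfb1, the ligand gene most studied in fibrosis, was measured by 10 control spots and 9 aneurysm spots and had levels of -2.00 and -1.82. Its control spots ran from -2.09 to -1.94 and its aneurysm spots from -2.00 to -1.59, so they overlapped, and the difference was 0.19 ± 0.05. For Tgfb2 the 2 probes disagreed. The probe used, with 1 spot per array, gave -4.38 and -4.12 (0.26 ± 0.53) and the other, with 2 spots, -4.05 and -4.54 (-0.49 ± 0.29), so its direction was not determined.

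Among the genes named for latent TGF-beta binding proteins, Ltbp4 was at 0.64 and 1.04, a difference of 0.40 ± 0.06. Ltbp3 went from 1.15 to 1.55 (0.40 ± 0.08, 1 spot per array) and Ltbp1 from -1.27 to -1.03 (0.25 ± 0.09). Ltbp2 was at -1.59 and -1.52, a difference of 0.07 ± 0.11 within its spot error, while its dimmer probe gave 0.57 ± 0.38. Tgfbi, a matrix protein first found as a TGF-beta induced gene, was at 1.38 and 1.69 (0.31 ± 0.06). Tgfb1i1, which encodes the focal adhesion protein Hic-5, was at -1.75 and -1.53 (0.22 ± 0.11). Fibroblast markers were higher in the same library, 7 of 8 of them, with a median of 0.49 and a summed signal of 163 times the 75th percentile in the control and 180 times in the aneurysm. Contractile smooth muscle markers had a median of 0.18 over 9 genes (summed signal 128 and 150 times). The part of these cell types in the values of the ligand group was not tested. In bulk tissue, more cells of a type and more RNA per cell cannot be told apart.

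The TGF-beta receptor group was mixed. Beside Eng, the type I receptor gene Tgfbr1 was at -0.35 and -0.20 (0.15 ± 0.07). The type II receptor gene Tgfbr2 lay the other way, at -0.57 and -0.86 (-0.28 ± 0.12, 1 spot per array), and its second probe gave -0.14 ± 0.16. Tgfbr3, which encodes the coreceptor betaglycan, was at -2.61 and -2.85 (-0.24 ± 0.16). Tgfbrap1, which encodes a protein that associates with TGF-beta receptors, was at -3.79 and -3.85 (-0.07 ± 0.38, 1 spot per array). With spike-in scaling Tgfbr2, Tgfbr3 and Tgfbrap1 differed by 0.02, 0.06 and 0.23, so their direction depends on the scaling.

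Endothelial marker genes differed less than Eng. The difference of 0.99 for Eng stands beside 8 endothelial markers between -0.24 (Cdh5) and 0.33 (Pecam1), with a median of 0.16 and a summed signal of 16.9 times the 75th percentile (control) and 18.1 times (aneurysm). Kdr, the main endothelial VEGF receptor gene, differed by -0.03 and Cldn5, a tight junction gene, by 0.17. Fibroblast markers had a median of 0.49 and macrophage markers of 0.22. The part of endothelial or other cell content in the value of Eng was not tested.

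Acvrl1, which encodes ALK1, the endothelial type I receptor that works with endoglin, was measured by 10 control spots and 8 aneurysm spots. The control spots ran from 0.42 to 0.65 and the aneurysm spots from 0.84 to 0.96 without overlap, and the difference was 0.38 ± 0.03. Other BMP receptor genes were higher by less: the type II receptor gene Bmpr2 was at -1.35 and -1.10 (0.25 ± 0.09), and the type I receptor gene Bmpr1a at -0.36 and -0.16 (0.20 ± 0.07). Bmpr1b, another type I receptor gene, was lower, at -2.64 and -3.13 (-0.50 ± 0.16, and -0.20 with spike-in scaling). Bambi, a decoy receptor that lacks a kinase domain, was at -1.28 and -0.77, a difference of 0.51 ± 0.09.

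The activin receptor genes other than Acvr1c gave mixed values. The type II receptor gene Acvr2b was at 0.94 and 0.73 (-0.21 ± 0.06), but its second probe gave 0.01 ± 0.14 and spike-in scaling 0.09. The type II receptor gene Acvr2a (-4.97 and -5.30, -0.32 ± 0.52) and the type I receptor genes Acvr1 (-4.78 and -4.34, 0.44 ± 0.49) and Acvr1b (-4.86 and -4.78, 0.08 ± 0.49) had differences smaller than their spot error. Inhba, which encodes the activin A chain, was higher, at -0.12 and 0.23 (0.35 ± 0.07). Inhbb, the activin B chain gene, was at -3.38 and -3.41 (-0.03 ± 0.19; second probe -0.27 ± 0.20). Inhbc and Inhbe, chains made mainly by liver, stayed near background in both libraries.

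BMP and GDF ligand genes were spread on both sides, with 7 of 13 measured members higher and 6 lower and a median of 0.07. Apart from Bmp6, the BMP ligand genes differed by under 2 spot errors. Bmp4 was at 2.29 and 2.39 (0.10 ± 0.06), and Bmp2, of the same subfamily, at -0.44 and -0.33 (0.11 ± 0.08). Bmp7 and Bmp5, of the subfamily of Bmp6, were at 2.83 and 2.74 (-0.08 ± 0.06) and at -2.96 and -2.70 (0.26 ± 0.16). Bmp8a was at -2.69 and -2.58 (0.11 ± 0.16), Gdf7 at -2.96 and -2.79 (0.18 ± 0.16) and Bmp15, an oocyte ligand gene, at -4.32 and -4.25 (0.07 ± 0.38). Bmp1 carries a BMP name but encodes a procollagen-processing metalloproteinase, and it was at 3.09 and 3.03 (-0.06 ± 0.06).

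The GDF genes held both members at least 1.5-fold lower. Gdf3, a ligand related to Nodal signalling, was at -5.00 in the control, its sole library above background, and at -7.16 in the aneurysm. Its bound was -1.86 (3.63-fold lower in the aneurysm library), from 1 spot per array, and this was under 2 of its spot errors of 1.01. With normexp Gdf3 was lower by less (-0.58). A second Gdf3 probe, not well above background on either array, gave -0.50 ± 0.32. Gdf6 was at -4.06 and -4.64, a difference of -0.59 ± 0.41 from 1 spot per array and just past 1.5-fold, with -0.29 under spike-in scaling. Gdf10 was measured by 10 control and 8 aneurysm spots (levels -3.57 and -3.82) and differed by -0.25 ± 0.10, with spot ranges that overlapped (-3.88 to -3.33 and -4.02 to -3.57) and 0.05 under spike-in scaling. Gdf15, a stress-induced cytokine, was at -2.49 and -2.59 (-0.09 ± 0.14). Gdf2 and Bmp10, the circulating ligands of ALK1, stayed near background in both libraries.

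Among the Smads, the largest difference was that of Smad5, a signal transducer of the BMP branch, at -1.18 against -1.73. Its difference was -0.54 ± 0.09, just short of 1.5-fold, but its 2 control spots lay far apart, at -1.52 and -0.85, against -1.73 at both aneurysm spots. Smad1, of the same branch, was measured by 10 and 9 spots, at -0.73 and -0.72, a difference of 0.0033 ± 0.04 and so within its error. Smad9, the third of them, was at -4.91 and -5.26 (-0.35 ± 0.52). Smad2, of the TGF-beta branch, was at -3.50 and -3.29 (0.21 ± 0.19, and -0.0056 with normexp), and Smad3, its other Smad, stayed near background. Smad4, the shared partner, was at -2.34 and -2.44 (-0.10 ± 0.14).

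Of the 2 inhibitory Smads, Smad6 was higher, at -0.58 and -0.31 (0.27 ± 0.08), while Smad7 was at 0.91 and 0.93 (0.02 ± 0.06). The Smurf genes, whose products mark receptors and Smads for degradation, were both higher. Smurf2 was at 2.12 and 2.44 (0.33 ± 0.06; second probe 0.03 ± 0.06). Smurf1, measured by 10 spots on each array, had control spots from -0.38 to -0.22 and aneurysm spots from -0.14 to 0.02, a difference of 0.21 ± 0.03, and its second probe, with 1 spot, gave -0.17 ± 0.23.

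Id1, an inhibitor of DNA binding and a direct BMP and ALK1 target, was measured by 10 spots on each array. Its control spots ran from 0.30 to 0.44 and its aneurysm spots from 0.61 to 0.78, without overlap, and it differed by 0.31 ± 0.03. Id2 went from 1.05 to 1.28 (0.23 ± 0.06). Id3 (-4.62 and -4.39, 0.23 ± 0.39) and Id4 (-2.10 and -2.20, -0.10 ± 0.14) were within their spot errors. No Id gene reached 1.5-fold with the reported scaling, and with spike-in scaling Id1 differed by 0.61, past that line.

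The secreted antagonists bind BMPs or activins and keep them from their receptors. By the probe used for each gene, they lay within 2 spot errors of equal levels. Fst, which encodes follistatin, was at -1.46 and -1.48 (-0.02 ± 0.09), and Chrd, the chordin gene, at -0.43 and -0.56 (-0.12 ± 0.09). Grem1, the gremlin gene, was at -2.02 and -2.17 (-0.15 ± 0.12), and its second probe gave -0.56 ± 0.19. Nog, the noggin gene, was near the lowest signals, at -6.26 and -5.80, with a bound of 0.46 equal to the measured difference and a spot error of 0.67. With normexp Nog had no value.

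Set against the spot error alone, 20 of the 54 members well above background on both arrays were higher by more than 2 spot errors and 5 were lower (Smad5, Bmpr1b, Tgfbr2, Gdf10 and Acvr2b). The same held for 21.9% and 21.5% of all 11201 genes measured on both. The other 29 members were within 2 spot errors. The 20 were Tgfb1, Tgfb3, Ltbp1, Ltbp3, Ltbp4, Tgfbi, Tgfbr1, Eng, Bmp6, Inhba, Acvr1c, Acvrl1, Bmpr1a, Bmpr2, Bambi, Smad6, Smurf1, Smurf2, Id1 and Id2. Each kept its direction under the 11 alternatives, several of which could not turn a higher member lower. Because the spot error pools probes of like signal, it can fall short of a probe's own spread. The control spots of Smad5 lay at -1.52 and -0.85, and Tgfbr2 and Ltbp3 had 1 spot per array. Spot error measures how well 1 RNA was read on 1 array, not how animals differ.

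**Figure D3:**
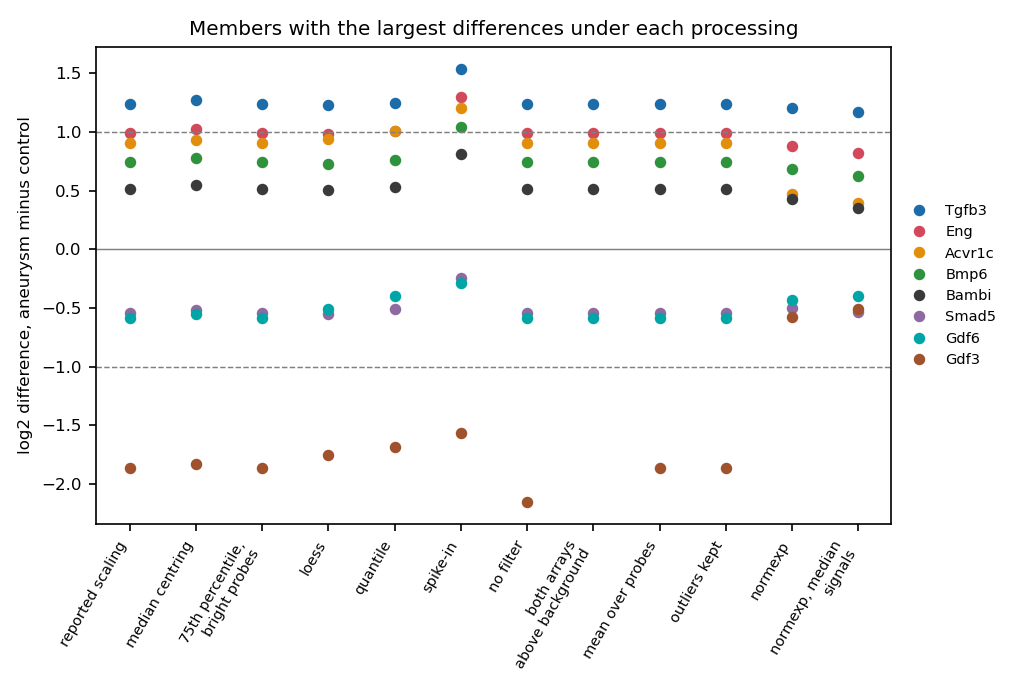
Log2 difference, aneurysm minus control, of the 8 members with the largest differences, under the reported scaling and each of 11 alternatives on the horizontal axis; dashed lines mark 2-fold. Tgfb3 lies above 1 throughout, Eng crosses that line with median, quantile and spike-in scaling, Acvr1c with the last 2 of these and Bmp6 with spike-in scaling, and Gdf3 has no value where probes had to be above background on both arrays.

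Other genes of the pathway, and some related ligands, were described through 7 lists with 105 genes, of which 75 had a value. At least 1.5-fold higher were 8 of the 75 and lower 5, beside the 4.25% and 8.43% of all measured genes, and the median was 0.03. Among TGF-beta transcriptional targets, Ccn2, the connective tissue growth factor gene, was at 1.38 and 2.48 (1.099 ± 0.026). Postn, the periostin gene, differed by 0.99 ± 0.48 but by 0.19 with normexp. Of the list's 17 measured genes 10 were higher, the median was 0.17, and the collagen genes Col1a2 and Col3a1 differed by -0.06 and -0.03 (0.24 and 0.27 with spike-in scaling).

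BMP and ALK1 targets outside the members had a median of 0.08 over 10 genes. Hes1, a Notch and BMP target, was above background in the aneurysm alone, with a bound of 1.04, at least 2-fold higher, and a spot error of 0.51. Dlx5, a bone transcription factor, was at -3.17 and -2.53 (0.64 ± 0.17, and 0.33 with normexp), and Tmem100, an endothelial ALK1 target, differed by 0.38 ± 0.16. Hamp, the hepcidin gene, was at -2.67 and -4.60 (-1.94 ± 0.11); hepatocytes are its main source, and their markers had a median of -4.37. The part of liver transcripts in the value of Hamp was not tested.

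Extracellular antagonists beyond the members went both ways, with 8 of 13 higher. Fstl3, a follistatin-like activin inhibitor, was at -2.27 and -1.35 (0.93 ± 0.13), and Fstl4 (-0.62 ± 0.12) was lower. In the latency and activation list (median -0.08 over 12 genes), the microfibril gene Fbn1 (0.57 ± 0.08) and the proteoglycan gene Dcn (0.55 ± 0.02) were higher and Fmod, another small proteoglycan gene, was lower (-0.41 ± 0.05). Intracellular regulators had a median of 0.11 over 15 genes and none past 1.5-fold. Fkbp1a, which binds type I receptors, differed by 0.48 ± 0.06, Zfyve16 by 0.36 ± 0.19 and Usp15 by -0.36 ± 0.12. The other ligands (median -0.22 over 6 genes) included Lefty2 (-0.71 ± 0.20), Artn (-0.62 ± 0.17) and Inha (-0.33 ± 0.09). Artn, Gdnf and Nrtn on this list are related ligands of the GDNF family, outside the TGF-beta and BMP branches. In the list of coreceptors and other receptors, 2 of 8 genes had a value. Rgma differed by 0.03 ± 0.06 and Hjv, a BMP coreceptor of liver and muscle, by -0.51 ± 0.29. With spike-in scaling the medians of these latency, ligand and coreceptor lists were 0.22, 0.08 and 0.06, so their sign depends on the scaling.

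**Figure D4:**
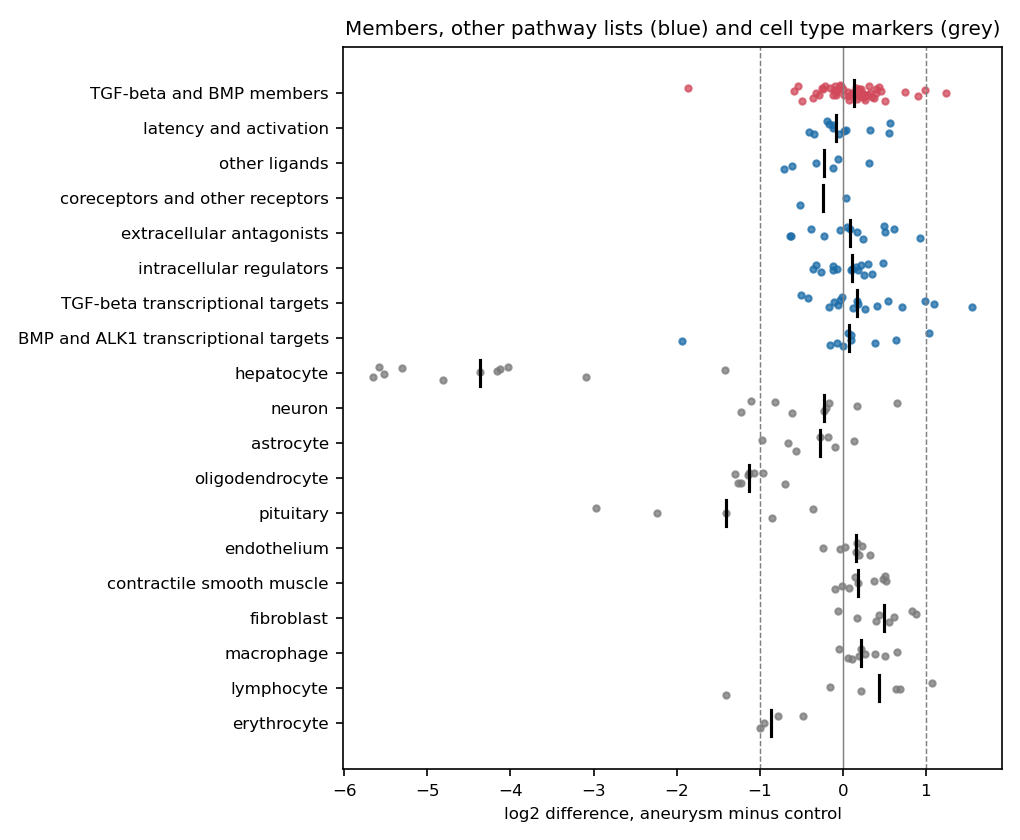
Log2 difference, aneurysm minus control, of each measured gene, for the members (red), 7 lists of other pathway genes (blue) and 11 lists of cell type markers (grey). Black bars are medians and dashed lines mark 2-fold; the members lie close to 0 with a median of 0.13, while hepatocyte markers have a median of -4.37.

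Immune and brain markers also differed. Macrophage markers were higher for 8 of 9 genes (median 0.22) and lymphocyte markers for 4 of 6 (median 0.43, but -0.02 with normexp). Neuron markers (median -0.23) and astrocyte markers (-0.27) had medians of 0.07 and 0.03 with spike-in scaling. Pituitary markers had a median of -1.41 over 5 genes and erythrocyte markers of -0.86 over 4. Their part in the values of the members was not tested.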

How the data were processed

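Total RNA of 1 control and 1 aneurysm sample was labelled for one-colour Agilent rat arrays, per the labels' protocols. The authors deposited each array's scanner output, from Feature Extraction (version 10.10.1.1, per the file headers), and the deposited values used here are its processed spot intensity on a linear scale. Deposited flags mark spots well above background, outliers and control spots (other columns of no unit). The authors' scaling between arrays is not stated in the labels.

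Log2 intensity minus each array's 75th percentile (621 control, 801 aneurysm) was averaged over a probe's spots, outliers left out. A probe passed as well above background when the flag stood on 50% or more of its spots. Accessions without version were matched to RefSeq's GRCr8 gene table, which named 18006 of 30367 probes. Each gene took its brightest probe (by the mean over both arrays) well above background on at least 1 array, and 11902 genes had a difference or bound. A bound sets the brighter level against the higher of the dim level and the lowest level well above background on that array. The spot error uses the spot SD pooled over 20 bins of signal. The members, gene lists and thresholds were chosen with earlier results of these data known; every member is accounted for, and examples of the other pathway lists are the 3 largest absolute differences on both arrays, with Hes1, Col1a2, Col3a1 and the marker examples added after their values were seen; some examples are not reported here. Alternatives were normexp (limma 3.58.1, offset 50; the planned mean signal column was not used here, so it ran on processed signals, and on median signals as an addition made after the files were seen), quantile, median, loess (span 0.3), bright-probe and spike-in scaling (7 probes), 2 filters, the mean over probes, outliers kept and a 1.5-fold threshold. The code was tested on simulated arrays.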

Additional observations from a re-analysis of the deposited data

How the results depend on the processing

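No paired analysis was possible because each group has 1 array, and for the same reason no array could be left out. The count of members at least 2-fold higher was 1, and 3 with quantile normalization, 2 with median centring, 4 with spike-in scaling and 4 at 1.5-fold. The count at least 2-fold lower was 1, and 0 with normexp (on processed or median signals) and where probes had to be well above background on both arrays, 3 with no filter and 2 at 1.5-fold. At least 1.5-fold higher were 4 members, and 14 with spike-in scaling. At least 1.5-fold lower were 2, and 0 with either normexp, 4 with no filter, and 1 with quantile, median, bright-probe, spike-in or loess scaling and with the filter on both arrays. The median of the members, 0.13, was -0.0056 with normexp, -0.0335 with normexp on median signals, 0.22 with quantile and 0.43 with spike-in scaling. For the other pathway genes, the 3 at least 2-fold higher became 6 with spike-in scaling, 1 with normexp on median signals and 8 at 1.5-fold, and the 1 lower became 5 at 1.5-fold. Their 8 at least 1.5-fold higher were 4 with either normexp, 13 with quantile and 20 with spike-in scaling, and the 5 lower were 1 with each of these 4. Spike-in scaling adds 0.30 to each difference and normexp adds an offset by construction; the cause of the other changes was not tested. No member at least 1.5-fold apart turned its sign under an alternative that gave it a value, though median, bright-probe and spike-in scaling could not turn a higher one. With 1 array per group, depth is limited by signal over background, and the 7 members not well above background could differ unseen.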
